A study of Mus musculus with 15 samples.

Results

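The comparison described here set the liver of transplanted mice against the kidney of the same mice. It used 8 of the 15 arrays of the series, the 4 titled host liver and the 4 titled host kidney, and matched them by the number in the title, so that liver 1 and kidney 1 were treated as the organs of mouse 1. All 8 samples came from female FVB/N mice, 48 to 55 weeks old when their RNA was taken. The liver injury was started in recipients 7 to 9 weeks old with monocrotaline, an alkaloid of plants that is toxic to the liver sinusoids, as 2 injections of 70 mg/kg with 2 weeks between them. The mice then received 1000000 hepatocytes under the kidney capsule from FVB/N-hA1AT transgenic donors aged 8 to 20 weeks, which carry a human alpha-1 antitrypsin gene, and their organs were profiled 250 to 300 days after that transplantation. The host liver was therefore an injured liver and the host kidney came from an animal that carried a hepatocyte graft, and both organs shared that history. The labels do not say whether the kidney sampled was the grafted one. The 3 livers of untreated 20-week-old female FVB/N mice (control livers) are given beside some values as a description and entered no test.

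Liver and kidney are both epithelial organs with high metabolic rates, and they divide many tasks of the body. Hepatocytes make most proteins of blood plasma, form bile, detoxify drugs and turn ammonia into urea, while Kupffer cells, sinusoidal endothelium and stellate cells line and support the sinusoids. In the kidney, podocytes hold back protein in the glomerulus, the proximal tubule recovers most of the filtered solutes, and the thick ascending limb, distal tubule and collecting duct set the final salt, water and acid content of urine. Several hormones and metabolites, among them active vitamin D, angiotensin, creatine and arginine, are made by enzymes split between the organs.

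Each array measured RNA from bulk tissue, so fewer cells of a type and less RNA per cell cannot be told apart. A level is the log2 of a probe's processed signal minus the 75th percentile of that array. A difference is host liver minus host kidney on that log2 scale. Its standard error is limma's over the 4 pairs, drawn toward a spread shared by all genes. A gene is called where limma's adjusted p was under 0.05 (Benjamini-Hochberg over all genes tested). Levels of different genes come from different probes and are not set against each other. The kidney arrays had 65.7% ± 2.26 (SD, n = 4) of probes well above background against 49.8% ± 2.43 (SD, n = 4) in the livers and 54.4% ± 0.80 (SD, n = 3) in the control livers. The liver value was lower in 4 of 4 pairs, with an exact two-sided sign-change permutation p of 0.125, the smallest that 4 pairs allow. The lowest level that counted as above background lay between -6.13 and -5.34 in the kidneys and between -4.26 and -3.53 in the livers, so a weak transcript could be seen further down in kidney. The 308 negative control spots averaged -7.86 in kidney and -6.10 in liver, so that a gene without signal in either organ would read higher in liver by that gap. Where a gene was never above background in an organ, the text therefore gives an "at least" fold: the bright organ's mean against, on each array of the dim organ, the higher of that lowest level and the probe's own signal. Other genes were above background on only part of the arrays of their dim organ, among them in some kidneys Mug1, Plg, F12, Agxt, Mat1a, Slco1b2, Cyp2a12, Foxa1, Foxa2 and Uox, and in some livers Lrp2, Slc5a2, Slc26a4, Col4a3, Krt7, Cyp27b1, Arg2 and Psat1. Their differences rest in part on signal not above background and are not ranked. The kidney arrays were all on slide 4 and scan 2, the liver arrays on slides 2 and 3 and scan 1, so slide or scan and organ cannot be told apart. Beyond the shared history given above, the labels tell the samples of an organ apart only by number, and p-values measure the spread between these samples.

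Of 15425 genes tested, 5905 were higher in host liver (38.3%) and 4775 were lower (31.0%), so 10680 were called in either direction (69.2%). For 9350 of them (60.6%) the 4 livers and the 4 kidneys did not overlap. The direction was the same in 4 of 4 pairs for 10565 of the called genes. Much of this was modest: the lower and upper quartiles of the differences were -0.78 and 0.79, around a median of 0.12. Differences of at least 8-fold were found for 792 genes higher and 1060 lower in liver, and of at least 64-fold for 324 and 258. With shares this high over all genes, a call alone says little about a gene list, and the lists below are read by the size of their differences. Members above background on every array of 1 organ but not of the other entered through that organ, which largely set their side. These were 17 of 30 proximal tubule transporters, 12 of 15 thick limb, 9 of 13 principal cell and 12 of 22 renal factor genes. They were also 10 of 18 brush border, 6 of 11 distal tubule, 8 of 15 intercalated cell and 8 of 16 podocyte genes. On the liver side they were 7 of 20 P450 and 6 of 19 apolipoprotein genes, and other lists held such members too. List medians use fitted differences, also where an organ was not above background. Of the genes tested, 1451 were above background in every kidney and in no liver, and 100 in every liver and in no kidney. Quantile normalization, which forces all arrays to the same distribution, moved the split from 55.3% of calls higher in liver to 46.8%, and median centring raised the median difference from 0.12 to 0.25, so small differences depend on the scaling. Among the genes named here, calls of differences up to 1.45 (Ass1) were lost under quantile normalization.

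**Figure D1:**
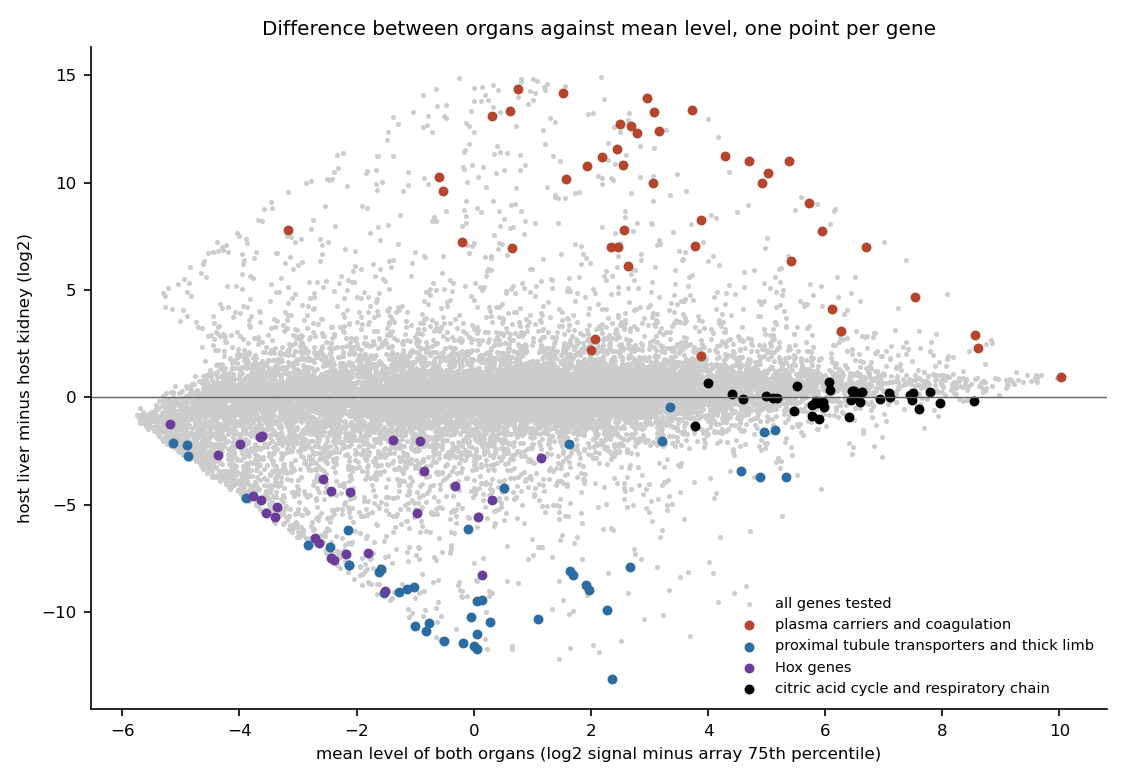
Difference between the organs (host liver minus host kidney, log2, vertical axis) against the mean level over the 8 arrays (log2 relative to each array's 75th percentile, horizontal axis), 1 point per gene, 15425 genes, with plasma protein, tubule, Hox and respiratory lists in colour. The plasma carrier and coagulation genes drawn lie above 0, and the proximal tubule transporter, thick limb and Hox genes drawn lie below 0, while the quartiles of all genes are -0.78 and 0.79.

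Alb, which codes for serum albumin, read 11.21, 10.94, 10.65 and 10.80 in the livers of mice 1 to 4 and -0.31, 0.49, -0.58 and -0.08 in their kidneys. The organs were far apart in each mouse, and the difference was 11.02 ± 0.20 (limma adjusted p = 3.15e-06). Umod, which codes for uromodulin, the main protein of normal urine, gave the mirror image, with 9.38, 8.84, 8.48 and 8.95 in the kidneys and -5.55, -3.49, -3.23 and -4.56 in the livers. Its difference was -13.12 ± 0.54 (limma adjusted p = 2.64e-05), and it was above background in the livers of mice 2 and 3 only. Control livers averaged 10.71 for Alb and -5.75 for Umod. Both stood on the side that the tissue labels name.

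**Figure D2:**
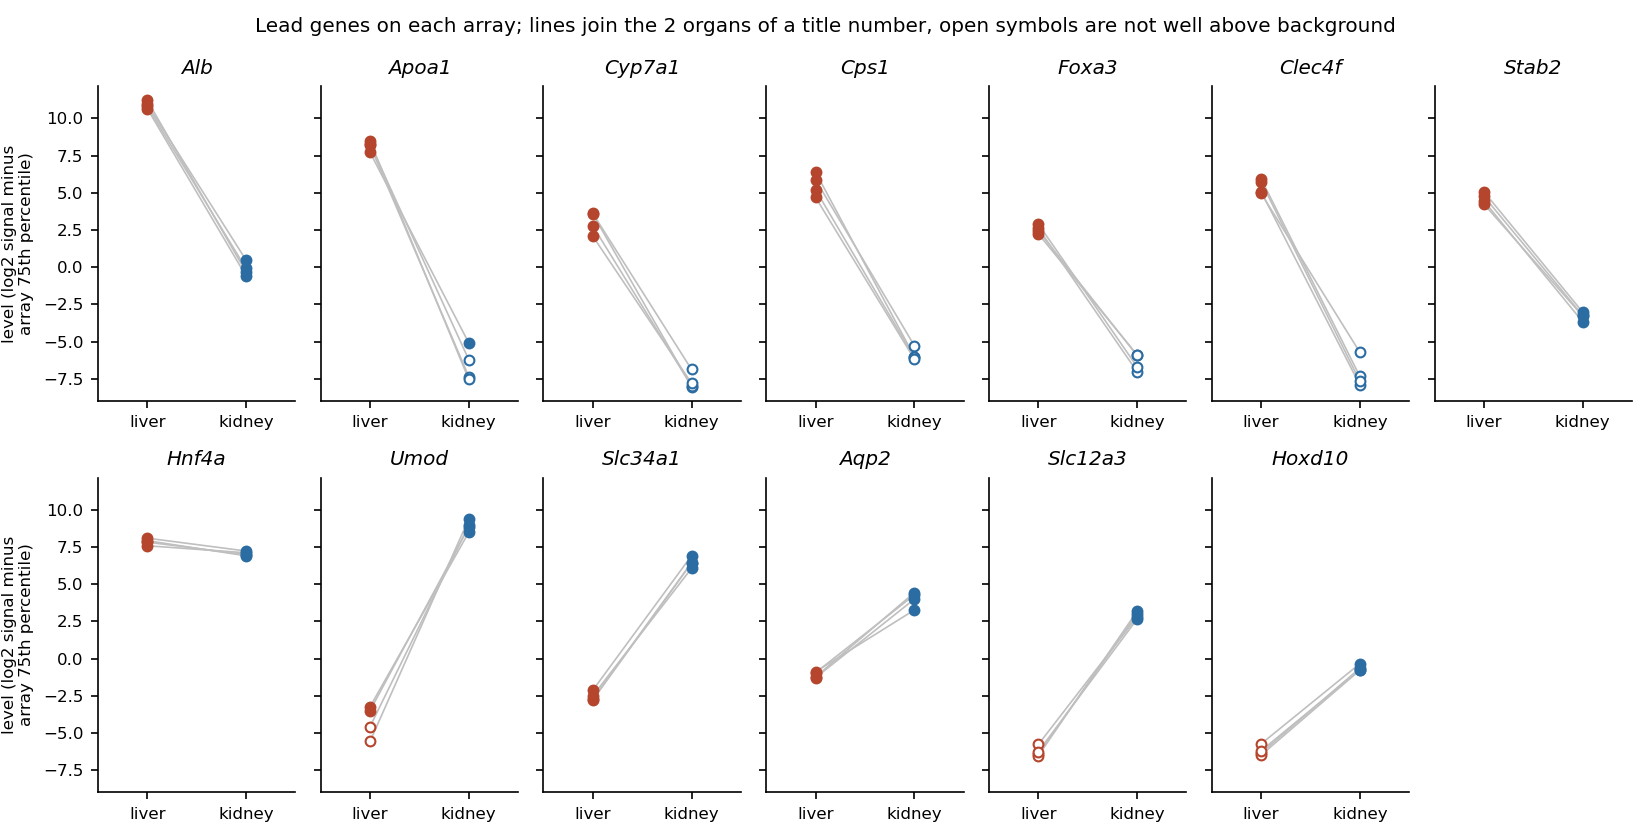
Level (log2 relative to each array's 75th percentile) of the lead genes on each array, with 1 point per array, lines joining the organs of a mouse and open symbols for values not well above background. For Alb the 4 livers lie between 10.65 and 11.21 and the 4 kidneys between -0.58 and 0.49, and Umod shows the opposite order.

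Secreted plasma proteins were among the largest liver differences. All 25 tested carrier proteins of plasma were higher in liver, with a median difference of 10.78, and organs did not overlap for any of them. Hpx, the haem carrier hemopexin, which was above background on all 8 arrays, differed by 13.94 ± 0.47. Mug1, a protease-binding murinoglobulin, differed by 14.36 ± 0.33 but was above background in 1 kidney only. All 21 coagulation genes were higher, with a median of 7.26. Plg, the precursor of plasmin, differed by 14.17 ± 0.52, F12 by 13.34 ± 0.41 and F2, prothrombin, by 12.32 ± 0.20. Within this list the differences spread widely, since F10, coagulation factor X, differed by only 0.95 ± 0.11, with means of 10.50 ± 0.26 in liver and 9.55 ± 0.22 in kidney (SD, n = 4), and gave -0.32 under quantile normalization. All 20 complement and lectin pathway genes were higher, with a median of 6.62, from 1.13 ± 0.18 for C2 (not called under quantile normalization) to 12.45 ± 0.16 for C4bp, the binding protein of C4b.

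Among 19 apolipoproteins and lipoprotein enzymes, all were higher in liver, with a median of 7.92. Apoa1, the main protein of high-density lipoprotein, read 8.18, 7.71, 8.30 and 8.47 in the livers and -7.34, -5.08, -6.21 and -7.52 in the kidneys. Only kidney 2 was above background, and the difference was 14.70 ± 0.54 (limma adjusted p = 1.87e-05). Apob, the core protein of very low-density lipoprotein, differed by 5.11 ± 0.14. The acute-phase gene Saa2 was at least 7966-fold higher in liver and liver 1 stood at 10.37 against 5.71 to 6.92 in the other livers. Without mouse 1 the fitted Saa2 difference was 13.87 in place of 14.87. Pon1, a paraoxonase carried on high-density lipoprotein, was at least 7630-fold higher. Saa2 and genes of other dense families, such as Mup19, the Cyp2c and Ugt2b genes and Serpina1a, have near-identical copies that a probe may read together, so their identity is uncertain within the family.

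Most plasma protein genes were above background on the kidney arrays, though at a small share of the liver signal. Of 46 plasma carrier and coagulation genes, 39, 45, 42 and 39 were above background in kidneys 1 to 4, at a median of 0.113%, 0.135%, 0.112% and 0.143% of the mean host liver signal. Over all probes, 62.5%, 67.7%, 66.9% and 65.7% were well above background on these arrays, and the part of this in the counts was not tested. The 46 genes include some that read high in kidney, such as F10 (mean 9.55) and Selenop (mean 7.48), so not all are traces of another organ. Several bright hepatocyte genes were highest in kidney 2. Mup19, a major urinary protein, read 1.09 there and between -4.05 and -3.06 in the other kidneys, and Ahsg, fetuin A, read -1.34 against -4.60 to -2.78. The part of the graft in these values was not tested. Without mouse 2, Apoa1 and Hamp remained called. In the other direction, of 63 proximal tubule and thick limb genes, 24, 30, 31 and 26 were above background in livers 1 to 4 and 24 to 26 in the control livers. Since most were not above background there, no share of the kidney signal is given.

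Nitrogen and amino acid metabolism separated the organs by step. Cps1, the first and rate-limiting enzyme of the urea cycle, read 5.87, 6.39, 5.2 and 4.69 in the livers and was never above background in kidney, with values of -5.26, -6.0, -6.04 and -6.16. It was at least 2443-fold higher in liver (difference 11.40 ± 0.27, limma adjusted p = 6.0e-06). Otc, the next enzyme, was at least 3822-fold and Arg1, the liver arginase, at least 7421-fold higher. The enzymes in between were present in both organs: Ass1 differed by 1.45 ± 0.27, with overlapping organs and no call under quantile normalization, and Asl by 2.24 ± 0.25. Of 25 amino acid catabolism genes, 24 were higher in liver and 1, Gldc of the glycine cleavage system, was not called (0.14 ± 0.18; -0.56 and lower under quantile normalization). Agxt, which detoxifies glyoxylate, differed by 13.99 ± 0.49, Mat1a, which makes S-adenosylmethionine in adult liver, by 13.80 ± 0.35, and Sds, serine dehydratase, was at least 2559-fold higher. Hpd and Fah, of tyrosine breakdown, differed by 4.98 ± 0.28 and 1.81 ± 0.13.

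Bile acid and drug metabolism genes were also on the liver side. Cyp7a1, whose product limits how fast bile acids are made from cholesterol, read 3.61, 3.57, 2.78 and 2.09 in the livers, and -6.86, -8.01, -7.98 and -7.79 in the kidneys, where it was never above background. It was at least 440.1-fold higher in liver (10.67 ± 0.28, limma adjusted p = 7.86e-06), and the control livers averaged 5.84. All 20 genes of bile acid synthesis and transport were higher, with a median of 5.81. Slco1b2, an uptake carrier of the sinusoidal membrane, differed by 14.27 ± 0.67 and Abcb11, the bile salt export pump, by 10.59 ± 0.30. Slc10a1, the sodium-taurocholate carrier, was the exception in size at 0.73 ± 0.10, with 9.99 ± 0.26 in liver and 9.25 ± 0.19 in kidney (SD, n = 4), and it gave -0.63 under quantile normalization. Of 20 cytochromes P450 of drug metabolism, 19 were higher, with a median of 11.14. Cyp2a12 differed by 14.74 ± 0.55 and Cyp3a25 was at least 5049-fold higher. The arachidonate epoxygenase Cyp2j5 was not called (0.20 ± 0.15). Conjugating enzymes were mixed, with 17 of 24 higher and 3 lower: Ugt2b1 was at least 1262-fold higher in liver, while Ugt8a, ceramide galactosyltransferase, was at least 4.9-fold higher in kidney, Ugt3a1 differed by -1.26 ± 0.24 and Sult1d1 by -1.17 ± 0.34. The Sult1d1 call was lost without mouse 1, 3 or 4.

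The cells of the liver sinusoid were seen through their markers. Clec4f, a lectin of Kupffer cells, read 5.94, 5.08, 4.95 and 5.74 in the livers and was never above background in kidney, where it read -7.33, -7.91, -5.71 and -7.66. It was at least 2287-fold higher in liver (limma adjusted p = 2.31e-05). All 15 Kupffer cell genes were higher, with a median of 5.42, but markers that kidney macrophages share were closer: Csf1r, the receptor of macrophage colony-stimulating factor, differed by 0.81 ± 0.17 (0.08 and not called under quantile normalization) and Adgre1 by 3.03 ± 0.22. Stab2, a scavenger receptor of sinusoidal endothelium, read 5.07, 4.76, 4.45 and 4.24 in liver and -3.01, -3.23, -3.66 and -3.27 in kidney, a difference of 7.93 ± 0.14 (limma adjusted p = 3.15e-06). Of 17 sinusoidal genes 16 were higher, with a median of 4.22, led by Clec4g at 9.41 ± 0.23. Of 18 stellate cell genes 15 were higher and 1 lower (2 without mouse 1). Colec10, a secreted collectin, was at least 597-fold and Gdf2, the ligand BMP9, at least 168-fold higher in liver, whereas Pdgfrb, a receptor of pericytes in many organs, was lower (-0.83 ± 0.15) and the intermediate filament gene Des was not called (0.67 ± 0.37).

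General endothelial genes showed no such shift. Of 18, 7 were higher and 6 lower in liver, with a median of 0.13. Vwf, von Willebrand factor, differed by 2.53 ± 0.14 and Ptprb by 2.05 ± 0.22, while Emcn, endomucin, differed by -3.22 ± 0.18 and the arterial factor Sox17 by -1.69 ± 0.26. Pecam1 was not called (0.18 ± 0.12). Without mouse 2, 3 or 4, only 3 of these genes were lower.

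Genes of the proximal tubule stood on the kidney side. All 30 of its tested transporters were lower in liver, with a median of -8.19 and no overlap, and 15 of them were never above background in liver. Slc34a1, the main phosphate transporter, read 6.44, 6.92, 6.07 and 6.44 in the kidneys and -2.77, -2.12, -2.49 and -2.71 in the livers, a difference of -8.99 ± 0.15 (limma adjusted p = 2.74e-06). Slc6a18, an amino acid transporter, was at least 883-fold higher in kidney, Slc7a9, the light chain of the cystine carrier, at least 741-fold, and Slc5a2, the glucose transporter SGLT2, differed by -10.33 ± 0.17. The smallest difference was that of Slc47a1, the proton antiporter MATE1, at -0.44 ± 0.14, which was not called when any 1 of the 4 mice was left out. Of 18 brush border and endocytic genes, 16 were lower in liver, but 10 of the 18 entered the test through kidney only. Cubn and Lrp2 code for cubilin and megalin, the receptors that recover filtered protein, and Cubn was at least 1449.7-fold higher in kidney while Lrp2 differed by -11.85 ± 0.64. Anpep, aminopeptidase N, was higher in liver (1.32 ± 0.23, not called under quantile normalization) and Enpep, aminopeptidase A, was not called (0.18 ± 0.25).

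All 15 genes of the thick ascending limb were lower in liver, with a median of -8.12, and 11 of them were never above background in liver. Beside Umod, these included Slc12a1, the cotransporter blocked by loop diuretics (at least 318-fold higher in kidney), Kcnj1, the potassium channel ROMK (at least 966-fold), and Egf (-9.89 ± 0.15). Slc12a3, the thiazide-sensitive cotransporter of the distal convoluted tubule, read 2.82, 3.01, 3.19 and 2.66 in the kidneys and -5.76, -6.39, -6.51 and -6.23 in the livers, none of them above background. It was at least 120.0-fold higher in kidney (limma adjusted p = 5.6e-06). All 11 distal tubule genes went that way, but 6 of them entered the test through kidney only. In the collecting duct, 11 of 13 principal cell genes were lower in liver. Aqp2, the vasopressin-regulated water channel, read 4.44, 4.28, 3.27 and 4.0 in the kidneys and -1.22, -0.94, -0.87 and -1.27 in the livers, a difference of -5.07 ± 0.26 (limma adjusted p = 5.33e-05). The mineralocorticoid receptor gene Nr3c2 was not called (0.36 ± 0.33). Of 15 intercalated cell genes 12 were lower in liver, among them Atp6v0a4, a proton pump subunit (at least 544-fold higher in kidney), and Slc26a4, pendrin (-6.92 ± 0.67). Slc4a9, a bicarbonate exchanger, was the 1 counted as higher in liver, but its probes disagreed: the brighter gave 2.58 and the other -4.82, so its direction is uncertain.

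Of 16 podocyte genes 13 were lower in liver, with a median of -4.12. Nphs1, nephrin, was at least 22.6-fold higher in kidney, and Col4a3, a collagen chain of the glomerular basement membrane, differed by -6.55 ± 0.50. Plce1, a phospholipase that other cells also express, was higher in liver (2.13 ± 0.28). Basement membrane genes as a group leaned to kidney, with 15 of 21 lower in liver and 5 higher: Lamb1, a chain of laminin, differed by -4.10 ± 0.12, while Col18a1, the source of endostatin, differed by 3.27 ± 0.13. Claudins, the sealing and pore proteins of tight junctions, were higher in liver for 6 of 15 and lower for 9. Cldn10, Cldn8 and Cldn16, of the thick limb and collecting duct, were at least 451-fold, 103-fold and 24.4-fold higher in kidney, while Cldn14, Cldn3 and Cldn1 were higher in liver by 4.17 ± 0.14, 3.49 ± 0.13 and 1.66 ± 0.25. Of 17 genes used as bile duct markers, which tubular epithelium also expresses in part, 12 were lower in liver and 3 higher. Epcam was at least 48.2-fold higher in kidney, and Krt7 and Spp1, osteopontin, differed by -6.25 ± 0.18 and -5.12 ± 0.15, while Krt18, Sox9 and Krt8 were higher in liver (4.76 ± 0.15, 2.56 ± 0.26 and 2.41 ± 0.16).

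**Figure D3:**
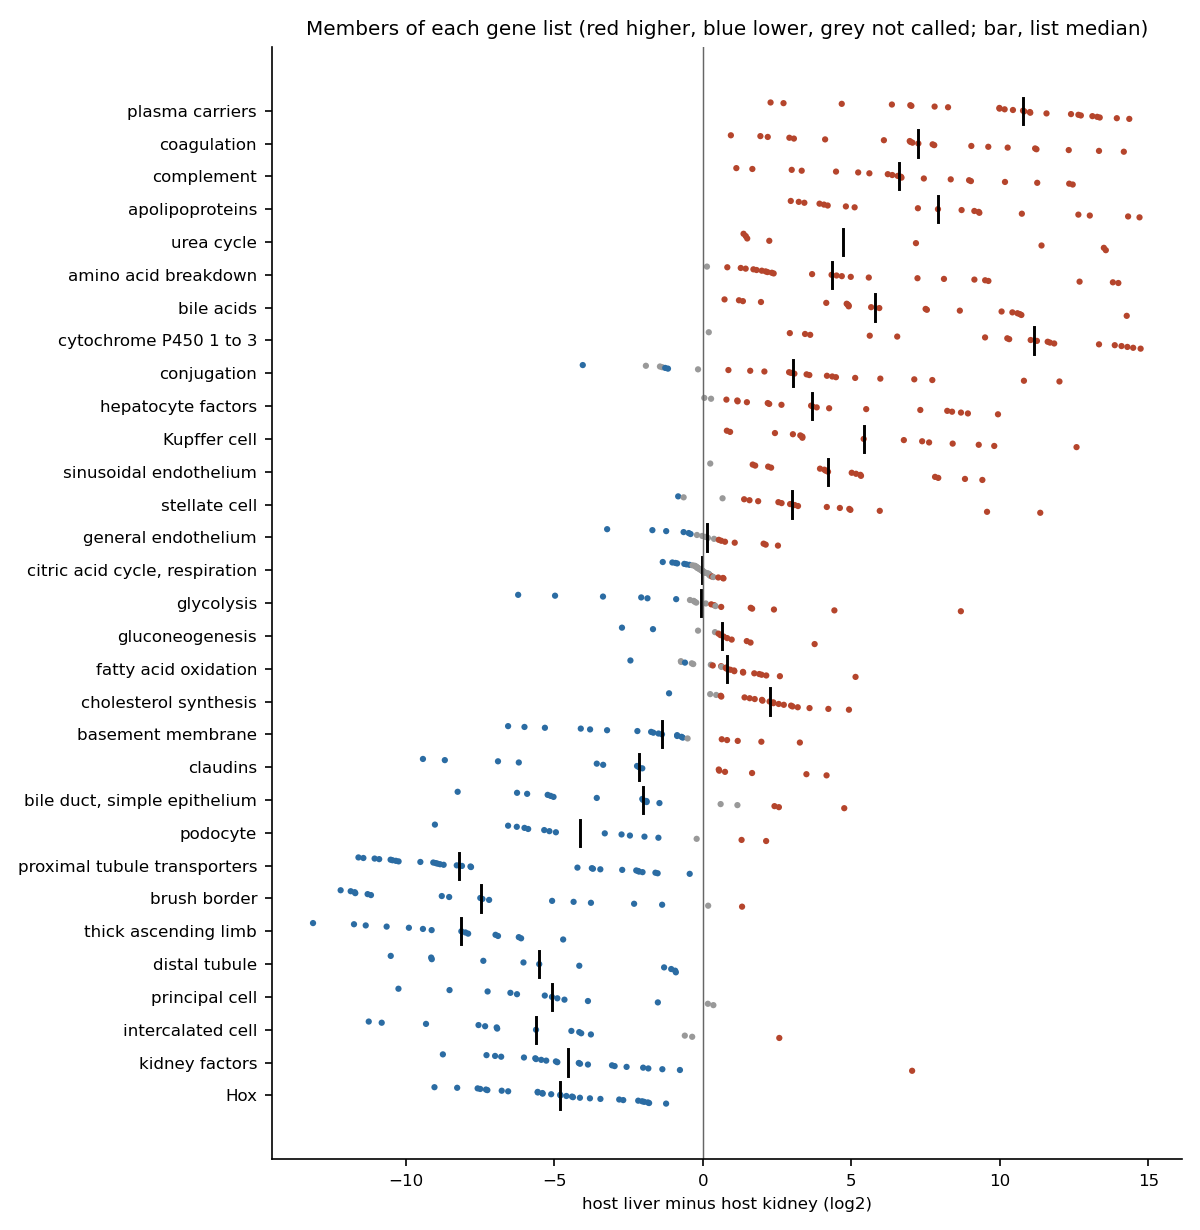
Differences (host liver minus host kidney, log2, horizontal axis) of the tested members of the gene lists, 1 row per list, with 1 point per gene (red higher, blue lower, grey not called) and a bar at the median. Plasma carrier and P450 genes have medians of 10.78 and 11.14, proximal tubule transporters and thick limb genes -8.19 and -8.12, and endothelial and respiratory genes lie around 0.

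Transcription factors divided the organs as well. Of 20 factors of hepatocyte genes, 18 were higher in liver, with a median of 3.67. Foxa3, a forkhead factor of endoderm, read 2.24, 2.45, 2.62 and 2.90 in the livers and -5.88, -5.92, -7.01 and -6.68 in the kidneys, where it was never above background. It was at least 308-fold higher in liver (limma adjusted p = 1.59e-05), and Foxa2, Onecut2 and Nr5a2 differed by 9.94 ± 0.26, 8.69 ± 0.25 and 8.23 ± 0.25. Of the 20 hepatocyte factors, 16 were above background on all 8 arrays, Hnf4a among them. Hnf4a, a nuclear receptor of hepatocytes and proximal tubule, read 8.10, 7.58, 7.92 and 7.83 in liver and 7.23, 7.11, 6.91 and 6.99 in kidney; it was called higher in liver (0.80 ± 0.13, limma adjusted p = 0.00322) but gave -0.17 under quantile normalization.

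Of 22 renal factors 21 were lower in liver, with a median of -4.53, but 12 of the 22 entered the test through kidney only. Tfap2b, a distal nephron factor, was at least 88.1-fold higher in kidney, Pax8 at least 82.9-fold and Irx2 at least 37.5-fold. The 1 that counted as higher in liver was Pax2, whose brightest probe read 5.24, 5.08, 1.07 and 2.62 in the livers and -3.36, -3.29, -4.03 and -3.5 in the kidneys. Another Pax2 probe was above background in every kidney and no liver, with a difference of -1.16, and the last one was above background on no array. The probes disagree, so the direction of Pax2 is uncertain. The Hox genes, which record position along the body axis, were tested for 29 of 39 listed members, and 29 were lower in liver. Of these, 22 were not above background in every liver and 18 in none, so they entered the test through kidney, which largely set their side. The other 7 were above background on all 8 arrays. Members dim in both organs are not in this count. Hoxd10 read -0.33, -0.64, -0.77 and -0.74 in the kidneys and -5.71, -6.33, -6.47 and -6.18 in the livers, at least 10.3-fold higher in kidney (limma adjusted p = 4.03e-06), and Hoxd8 was at least 126-fold higher.

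The promoters of genes on both sides were searched for a recognition sequence of Hnf4a, a factor that both organs showed. The windows are the 300 bases from 250 before to 50 after the annotated start in RefSeq (build GRCm38.p6), and both strands were searched for CAAAGTCCA, an HNF4 sequence. It was in 16 of 603 matched genes at least 8-fold higher in liver (2.65%), 7 of 817 at least 8-fold higher in kidney (0.86%), 30 of 7347 tested genes within 2-fold (0.41%) and 150 of all 27025 genes in the table (0.56%). These shares are a description of letters in a window and do not show binding. One promoter on each side is shown, chosen after the values were seen, 5′ to 3′ on the gene's strand, with the matched letters in capitals. Cyp8b1, the bile acid 12-alpha-hydroxylase, at least 260.5-fold higher in liver, lies at chr9:121916256-121916555 (minus strand), and Treh, the brush border trehalase, which differed by -5.07 ± 0.54, at chr9:44672983-44673282 (plus strand). The match lies from -67 to -59 relative to the start in Cyp8b1 and from -71 to -63 in Treh, where it is on the opposite strand.
Cyp8b1: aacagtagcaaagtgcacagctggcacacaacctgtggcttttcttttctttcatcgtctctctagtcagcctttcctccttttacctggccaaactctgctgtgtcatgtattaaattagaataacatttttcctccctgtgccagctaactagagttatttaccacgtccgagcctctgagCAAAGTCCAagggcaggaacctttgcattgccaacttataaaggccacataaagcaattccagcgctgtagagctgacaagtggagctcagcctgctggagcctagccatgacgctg
Treh: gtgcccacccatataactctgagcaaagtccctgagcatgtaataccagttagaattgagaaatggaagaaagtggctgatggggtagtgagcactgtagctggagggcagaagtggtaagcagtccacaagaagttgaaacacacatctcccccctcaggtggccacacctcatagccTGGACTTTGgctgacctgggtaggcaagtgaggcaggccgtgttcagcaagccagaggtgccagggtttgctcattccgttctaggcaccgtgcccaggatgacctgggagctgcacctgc

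Of 73 genes in 14 pathways followed across the organs, 71 were tested, 39 were higher and 25 lower in liver, and 7 were not called. In creatine synthesis Gatm, the first enzyme, was lower in liver (-3.97 ± 0.24), Gamt, the second, was higher (4.11 ± 0.17), and the creatine transporter Slc6a8 was lower (-3.95 ± 0.25). In the vitamin D pathway the 25-hydroxylase gene Cyp2r1 was not called (0.28 ± 0.24, but 2.37 and called as a mean over its probes), while Cyp27a1 and the plasma carrier Gc were higher in liver (4.16 ± 0.20 and 4.68 ± 0.25). The 1-alpha-hydroxylase Cyp27b1 was lower in liver (-2.63 ± 0.33), and both the 24-hydroxylase Cyp24a1 and the receptor Vdr were above background only in kidney, at least 95.3-fold and 278-fold higher there. In the renin-angiotensin system the substrate gene Agt was higher in liver (4.10 ± 0.14), the protease Ren1 lower (-2.74 ± 0.58), and the converting enzyme Ace lower (-4.35 ± 0.19). The receptor Agtr1a was higher in liver (1.15 ± 0.15), and Agtr1b was not tested.

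Of the 7 blood hormones and carriers tested, 6 were higher in liver and 1 was lower. Igf1, insulin-like growth factor, differed by 8.69 ± 0.20, and Thpo, thrombopoietin, by 1.88 ± 0.20. Hamp, hepcidin, read 9.57, 8.87, 6.87 and 8.41 in liver and -6.75, -3.10, -6.66 and -7.63 in kidney, above background in kidney 2 only (14.46 ± 0.79). Fgf21, a hormone of fasting and stress, ranged widely, at -0.82, -3.70, 2.88 and 4.11 in the livers against -2.61 on average in the control livers. It was above background in 1 kidney and higher in liver overall (7.47 ± 1.24). Kl, which codes for klotho, was at least 346-fold higher in kidney, and Epo, erythropoietin, was not tested.

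Serine and glycine metabolism ran in opposite directions by step. The serine synthesis genes Phgdh, Psat1 and Psph were lower in liver (-3.52 ± 0.23, -3.91 ± 0.58 and -1.28 ± 0.17), and the serine-using genes Shmt1, Shmt2, Sds and Agxt were higher, Shmt1 by 2.43 ± 0.12 and Shmt2 by 1.56 ± 0.11. Among ketone body genes, Bdh1, which makes beta-hydroxybutyrate, was higher in liver (1.16 ± 0.29, not called without mouse 4 or under quantile normalization), while Oxct1, which ketone users need, was lower (-6.49 ± 0.14). The glutaminase gene Gls2 was higher in liver (10.84 ± 0.55), and Glul, glutamine synthetase, was not called (-0.15 ± 0.29, but -0.82 and lower under quantile normalization). Uox, which breaks down urate in mice, differed by 14.16 ± 0.47, whereas Slc22a12, the urate reabsorption carrier, was at least 151-fold higher in kidney. Gulo, the last enzyme of vitamin C synthesis, and Rgn were higher in liver (9.58 ± 0.45 and 8.47 ± 0.31), and the vitamin C transporter Slc23a1 was lower (-1.38 ± 0.15). Bbox1, the last enzyme of carnitine synthesis, was higher in liver (7.05 ± 0.16) and the carnitine transporter Slc22a5 lower (-2.30 ± 0.31). In glutathione turnover Gclc, the rate-limiting synthesis step, was higher in liver (1.16 ± 0.20, not called under quantile normalization), and Ggt1, which starts its breakdown outside cells, was at least 485-fold higher in kidney. The deiodinase Dio1 was higher in liver (3.02 ± 0.28), and the inositol oxygenase Miox was lower (-8.78 ± 0.33).

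Pairs of related genes often divided between the organs. Of 31 pairs, 23 had the first member higher and the second lower in liver, 5 moved the same way and 3 had a member that was not called. Arg1 was on the liver side and the mitochondrial arginase Arg2 on the kidney side (-5.19 ± 0.28), Gys2 and Gys1 of glycogen synthesis differed by 5.64 ± 0.30 and -2.58 ± 0.14, and Ldha and Ldhb of lactate dehydrogenase by 1.66 ± 0.17 and -6.21 ± 0.12. Among transporters, the glycerol channel Aqp9 was at least 94.9-fold higher in liver while Aqp7 differed by -2.10 ± 0.14, and the cationic amino acid carrier Slc7a2 was at least 91.6-fold higher while Slc7a1 differed by -2.26 ± 0.12. Hsd11b1, which regenerates active glucocorticoid, differed by 5.38 ± 0.10, and Hsd11b2, which inactivates it, was at least 16.1-fold higher in kidney. In contrast, Foxa3 and Foxa1 were both higher in liver, and both branched-chain aminotransferases were lower, Bcat2 by -0.86 ± 0.11 and Bcat1 at least 42.8-fold.

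**Figure D4:**
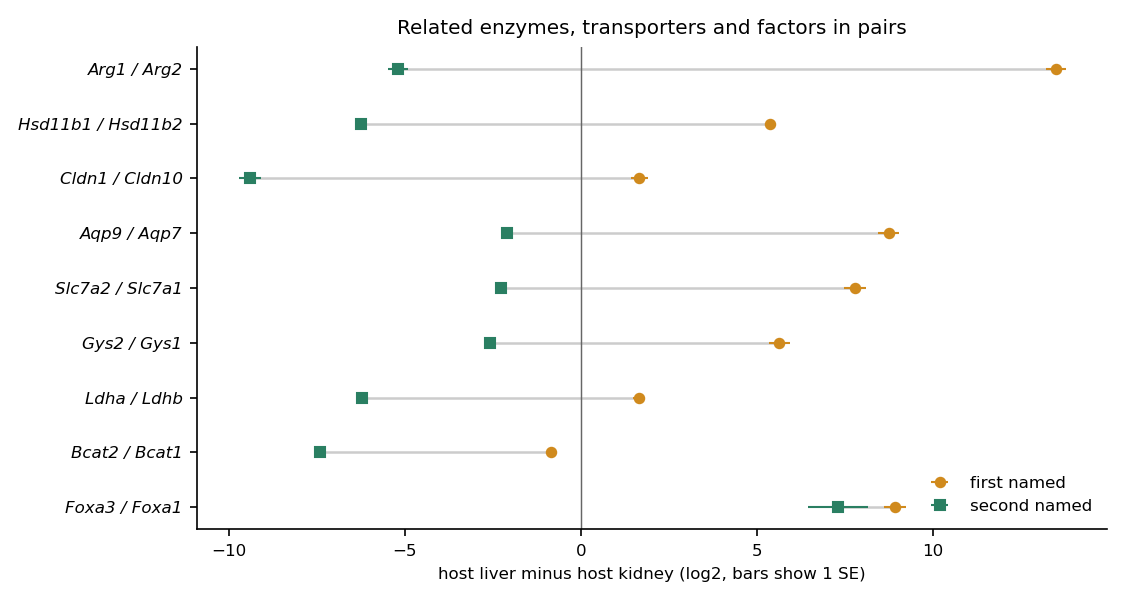
Differences (host liver minus host kidney, log2, horizontal axis) of both members of the gene pairs named in the text, 1 row per pair. Bars show 1 limma standard error over 4 pairs of organs. The fitted differences are drawn, also where an organ was not above background. Arg1 lies at 13.50 and Arg2 at -5.19, while both members of the Foxa3 and Bcat2 pairs lie on one side of 0.

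Central energy metabolism was close in both organs. Of 36 genes of the citric acid cycle and respiratory chain 25 were not called, 4 were higher and 7 lower in liver, with a median of -0.04. Those higher were 1 without mouse 2 or 3 and 2 without mouse 4. Under quantile normalization 33 of them were lower and 0 higher, so their side depends on the scaling. Of the subunits of isocitrate dehydrogenase, Idh3a and Idh3g were lower (-1.35 ± 0.16 and -1.02 ± 0.11) and Idh3b was not called (-0.01 ± 0.16), though it was lower under quantile normalization (-0.73). Of 12 gluconeogenesis genes 8 were higher in liver, but Pck1 and G6pc, its regulated steps, were not called (0.41 ± 0.26 and -0.16 ± 0.44), and Ppargc1a, a co-activator of mitochondrial genes, was lower (-2.72 ± 0.11). Of 24 genes of fatty acid oxidation 16 were higher and 2 lower (1 without mouse 1 or 4), with a median of 0.81. Cholesterol synthesis was clearer, with 18 of 21 higher and a median of 2.25, from Sc5d at 4.92 ± 0.23 to Cyp51, which was lower at -1.13 ± 0.21. Of 17 genes of fatty acid and triglyceride synthesis 12 were higher. Fasn differed by 3.22 ± 0.32, and Scd1 was not called (0.29 ± 0.47), except without mouse 4 (0.90).

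Immune and matrix genes gave smaller differences. Interferon response genes were higher in liver for 12 of 18 and lower for 3, from Bst2 at 4.37 ± 0.19 to Gbp3 at -1.98 ± 0.16. Of 16 myeloid genes 10 were higher and 3 lower: Lcn2, lipocalin 2, differed by 6.69 ± 0.48, while the chemokine receptor Cx3cr1 was lower (-1.75 ± 0.17). Of 18 lymphocyte genes 13 were higher, with Ms4a1 of B cells at 2.37 ± 0.24 and Cd3d of T cells at 1.80 ± 0.19, but the plasma cell genes Jchain and Mzb1 were lower (-2.84 ± 0.13 and -1.24 ± 0.27). Sdc1, which hepatocytes also make, differed by 5.54 ± 0.31. Class II genes were close, with 4 of 9 higher (2 without mouse 4) and 1 lower (2 without mouse 1). Among matrix genes 10 of 21 were higher and 7 lower, and Col1a1, the main collagen of scar, was not called (-0.24 ± 0.25). Of 15 proliferation genes 9 were higher and 0 lower in liver, Mki67 by 1.80 ± 0.30, but only 3 were called without mouse 2 and 3 without mouse 3. Of 15 p53 target genes 9 were higher, including Cdkn1a (2.12 ± 0.29) and Gdf15 (2.73 ± 0.33), and 3 were lower, Ccng1 by -1.72 ± 0.13.

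The mice differed from each other in ways that both organs showed. Over all 15425 genes the deviations of a liver from the liver mean correlated best with those of the kidney of the same number, at r = 0.234, 0.333, 0.236 and 0.181 for mice 1 to 4 (genes are not independent replicates). The genes named here were chosen after their values were seen, for moving together across the mice, and no test is given. Cyp1a1, a P450 that dioxins and similar ligands induce, read -2.15, -2.74, -2.18 and 5.11 in the livers and -1.82, -2.90, -3.39 and 3.14 in the kidneys, so mouse 4 was high in both organs. The clock output gene Dbp read 1.29, 6.61, 4.60 and 1.11 in liver and 1.39, 5.37, 3.0 and 1.81 in kidney, high in mice 2 and 3. Arntl, the clock factor BMAL1, ran the other way, with 1.96, -0.84, 0.04 and 2.11 in liver and 1.21, -2.54, 0.14 and 0.80 in kidney, and its difference (0.92 ± 0.31) was called with the pairing but not without it, nor without mouse 1, 2 or 4. S100a8, a neutrophil granule gene, read 4.87, 0.71, 2.45 and 3.26 in liver and 2.08, -1.99, -0.13 and 0.05 in kidney, highest in mouse 1 and lowest in mouse 2. Vnn1, a target of PPARA, was highest in mouse 3, at 4.79 in liver and 4.68 in kidney. Between the organs of a mouse, Dbp differed by 0.51 ± 0.42 (not called) and S100a8 by 2.82 ± 0.14. Livers varied more than kidneys, with a median SD of 0.259 against 0.163, and the SD was larger in liver for 8902 of 12365 genes above background on all 8 arrays. The livers lay on slides 2 and 3 and the kidneys on slide 4 alone. The 75th percentile signals were 287 to 448 in liver and 561 to 875 in kidney. The part of slide and signal in this spread was not tested and cannot be told apart from organ.

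**Figure D5:**
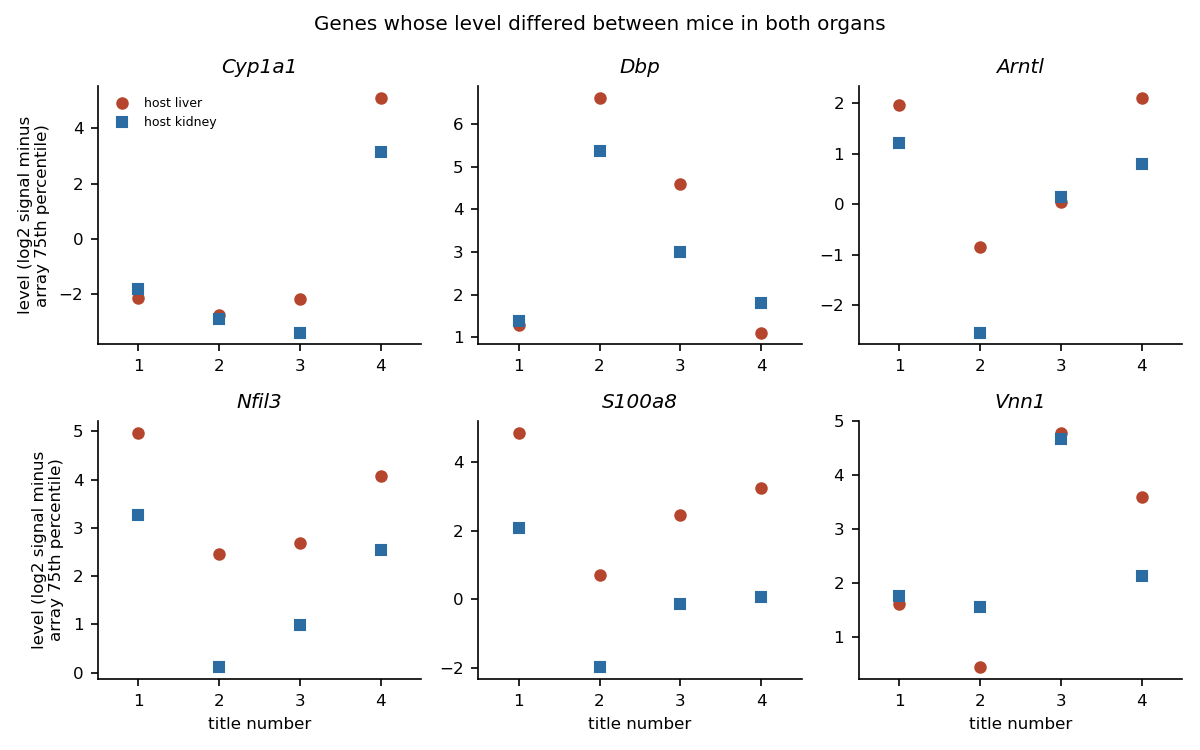
Level (log2 relative to each array's 75th percentile) of genes that differed between mice, against mouse number, 1 point per array, with circles for host liver and squares for host kidney. Cyp1a1 is high in mouse 4 in both organs (5.11 and 3.14), and Dbp is high in mice 2 and 3.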

How the data were processed

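RNA of 4 host livers and 4 host kidneys was hybridised to 1-colour Agilent arrays, each with 59305 non-control spots and 3671 further control spots. The deposited intensity values are background-subtracted processed signals (gProcessedSignal) made with Agilent Feature Extraction 10.10.1.1, per the submitters' processing notes. The authors' deposited log2 table was found to hold these signals minus a constant near each array's 75th percentile (100% of probes within 0.01), and served as an alternative. Here, control spots were left out. Spots of a probe were averaged without outlier-flagged ones, unless all spots of the probe were flagged. Only 432 of 55681 probes had several spots. The log2 signals were scaled by the 75th percentile, and probes kept if well above background on every array of either organ. The brightest kept probe stood for a gene, and 914 of 3954 genes with several probes had probes of opposite sign. Gene names are RefSeq symbols, matched by the accession that the array files give for a probe, and 26582 of 55681 probes had one. Differences were fitted with limma 3.58.1 (lmFit, eBayes, two-sided, R 4.3.3), with the title number as a block, as the comparison is defined by that number. Whether numbers mark mice was checked: each liver's deviations correlated best with the kidney of its own number (r from 0.181 to 0.333), and the labels do not state it otherwise. Fits were checked on simulated data with 200 of 15425 genes changed, where 48% of 2-fold and 80% of 4-fold changes were called. The simulation changed far fewer genes than the 69.2% called here, so its shares are not the detection rates of this comparison. A gene that was not called may still differ.

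The members and 46 gene lists were chosen with earlier results of these data known, so no list is tested. Named genes are the 8 largest differences each way above background on all 8 arrays, the 6 largest at-least folds each way, up to 4 leading and 3 opposite members of each list, all pathway and pair members and 17 lead genes, and the text describes a part of these (some results are not reported here). Further genes are said to be chosen after their values were seen. In all 15 alternatives were run, the stricter filter only for genes that passed it, and no column of sample values was left unmapped. Promoter sequences are from RefSeq (GRCm38.p6). The precision is limited by 4 arrays per organ.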

Additional observations from a re-analysis of the deposited data

Results flagged for a closer look

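The level of 1 array lay apart from the other 3 of its organ by Dixon's test for 5 of 106 groups of 4 arrays. The groups covered lead genes, clock genes, array signal measures and genes picked from these same values for moving together across the mice. Cyp1a1, Thrsp and Atf3 were among those picked, so a chance rate of about 1 in 20 does not apply. Liver 4 stood at 5.11 for Cyp1a1 while the other livers lay between -2.74 and -2.15, and the kidney of the same mouse was also the highest of its organ. Liver 2 stood at -0.039 for Clock, a core clock factor, with the others between 0.54 and 0.64. Kidney 2 stood at 1.84 for Thrsp, a lipogenic gene, with the others between -1.24 and -0.84. The same kidney stood at -2.80 for Atf3, a stress response factor, with the others between -0.11 and 0.07. Kidney 3 stood at 1.23 for Rora, a nuclear receptor of the clock, with the others between 1.11 and 1.13, a gap of small absolute size.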

How the results depend on the processing

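Counts of 5905 genes higher and 4775 lower in liver became 8995 higher with no filter on dim probes and 3061 lower with the stricter filter. Leaving out each mouse in turn gave 4862 to 5743 higher and 4247 to 4507 lower. Without the replicate block the counts were 5713 and 4646, and 10139 of 10680 calls were kept. Normexp background correction kept 9220 of them and reversed 365, and quantile normalization kept 9065 and reversed 131. The remaining settings moved neither count by over 1.5 times. Signs turned under quantile normalization for Hnf4a (-0.17), F10 (-0.32), Slc10a1 (-0.63), Gldc (-0.56) and Hba-a1 (-0.82), and for Slc4a9 as a mean over probes (-1.12); the cause was not tested. Quantile normalization also ended the calls of Anpep, Arntl, Ass1, Bdh1, C2, Csf1r and Gclc, all still higher in liver, and Glul and Idh3b became called lower. Normexp made Des, Nr3c2 and Cyp1a1 called higher and ended the call of Retn. Cidec, Nfil3 and Arntl lost their calls without the block. The stricter filter left 133 of the 199 named genes to compare. Weak signals were limited by the background of the liver arrays.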

Other observations

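Markers of neighbouring tissues are given here as values. Of adrenal cortex genes, Cyp11a1 and Cyp11b2 were above background on 0 of 8 arrays, while 3 of the 8 listed genes were above it on all 8. Of 7 tested fat cell genes 4 were lower in liver: Cfd, adipsin, differed by -4.90 ± 0.62, Lpl by -3.95 ± 0.32, Fabp4 by -3.04 ± 0.19 and Retn by -2.79 ± 0.51 (not called with normexp correction), while Cidec was higher (2.52 ± 0.84), a call lost without mouse 1, 3 or 4 and without the pairing. Of pancreas genes Amy2a5 differed by 7.18 ± 0.24, though amylase genes have near-identical copies. Red cell genes were close, with Hba-a1 of globin not called (0.34 ± 0.21) except without mouse 2 (0.56), whereas Slc4a1, which red cells share with intercalated cells, was lower in liver (-4.16 ± 0.63).

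Of 16 immediate early genes 7 were higher (4 without mouse 2) and 3 lower in liver. Atf3 differed by 2.67 ± 0.36, Jun by 1.88 ± 0.22 and Ier3 by -3.99 ± 0.21. Of 19 clock genes 7 were higher, 1 was lower (2 without mouse 4) and 11 were not called. Nfil3 differed by 1.83 ± 0.16, a call lost without the pairing, and Hlf by -0.89 ± 0.14.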
